A study of Mus musculus with 6 samples.

Results

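Transcripts of 10 histone chaperones were examined in RPE/choroid, the retinal pigment epithelium of the mouse eye together with the vascular layer beneath it. The genes were chosen by symbol, and Asf1a, Asf1b, Chaf1a, Chaf1b, Hira, Daxx, Atrx, Nasp, Ssrp1 and Nap1l1 were all found among the 33924 genes of the deposited table. The poly(A)-selected experiment held 3 young and 3 aged wild-type C57BL/6J mice, with no treatment and with both eyes of a mouse in a sample. Per the labels the young mice were 1 to 2 months old, whereas the study's methods give an older range for the young group. The sample titles place the aged mice at 20 to 24 months, and the age field narrows this to 22 to 24 months. The labels describe all 6 mice as male, whereas the study's methods speak of male and female animals. The study asked how the age of the mouse bears on histones and on the genes that regulate them. For each gene the table gives a mean normalized count, which is 1 average by the authors over all 6 libraries of both ages. No value of a single mouse was used, so no error is given for any level, and the levels below describe young and aged RPE/choroid together. No difference between the ages was computed, and no statement about age follows from these values.

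Histone chaperones are proteins that hold free histones and pass them to and from DNA, so that the positively charged histones do not bind where they should not. Some act during DNA replication and load newly made H3-H4 behind the fork, others place the replacement histone H3.3 at any time of the cell cycle, and others move H2A-H2B or keep a store of soluble histones. The RPE is a layer of cells that hardly divide after development, in which replacement of histones outside S phase is the usual route.

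The mean normalized counts of all genes added up to 40816668. Genes whose mean came from a single count fell on 6 values between 0.157 and 0.174, 1 for each library, which correspond to size factors between 0.959 and 1.06. The authors had scaled the libraries to their totals beforehand, so the number of reads behind each library is not known. Levels of different genes were compared per length, as the mean normalized count divided by the length in kb of the longest annotated transcript. They were ranked among 17953 genes of known length that averaged 10 normalized counts or more. If the deposited means already carry a correction for length, these levels divide by length again. The values given below with no length, which are the mean normalized counts themselves, would then be the ones to compare. The RPE markers Rpe65 and Rlbp1 had levels of 61154 and 47916 per kb, at percentiles 99.9 and 99.8. Of the 7 RPE markers Best1 was the exception, with 39.3 per kb. Markers of other cells were also high, with 39379 per kb for Tnnt3 of skeletal muscle, 18042 for Dcn of fibroblasts and 12659 for C1qa of macrophages. Each chaperone level is therefore that of a mixture of cells, in which fewer cells of a type and less RNA per cell cannot be told apart.

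All 10 chaperones averaged 10 normalized counts or more, and their levels spanned 67.4-fold per kb. Ssrp1 (1392 per kb) and Nap1l1 (1183 per kb) were the highest, and 5 genes lay close together in the middle range, namely Atrx, Nasp, Asf1a, Daxx and Hira with 258 to 529 per kb. Chaf1b (50.3 per kb), Asf1b (37.3 per kb) and Chaf1a (20.6 per kb) were the lowest. The widest step in this order was between Hira and Chaf1b, with a ratio of 5.13. The level of 7 chaperones was above that of the median gene, 213.9 per kb, and the median level of the 10 was 462 per kb. Neighbours with nearly equal levels were Atrx and Nasp (ratio 1.00), Asf1a and Daxx (1.05), Nasp and Asf1a (1.12) and Ssrp1 and Nap1l1 (1.18), and without values per mouse their order is not established.

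**Figure D1:**
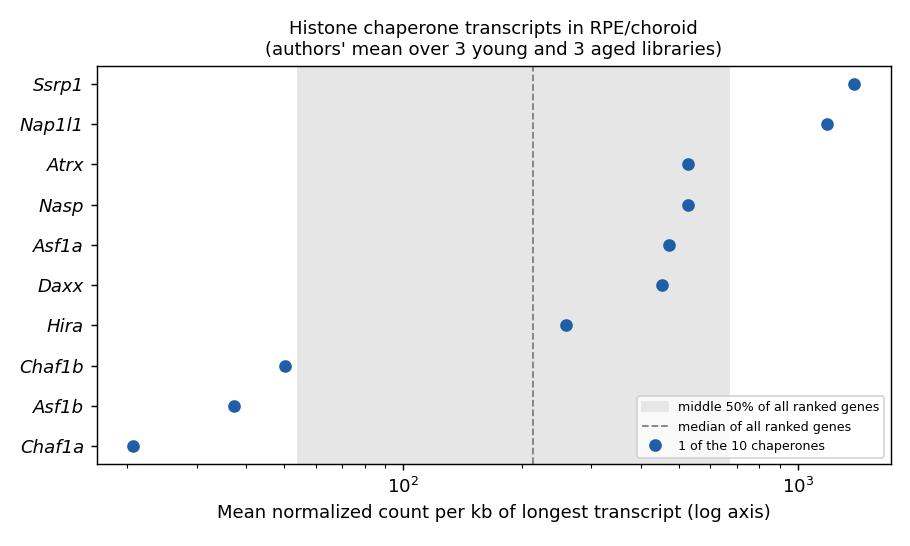
Level of each of the 10 chaperones, as the authors' mean normalized count per kb of the longest transcript on a log axis, with the middle 50% of all ranked genes shaded and their median dashed. Ssrp1 and Nap1l1 lie above the shaded range, and Chaf1b, Asf1b and Chaf1a lie below it.

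ASF1 binds an H3-H4 dimer and hands it on to either of the loading machines, and the mouse has 2 genes for it. Asf1a (ENSMUSG00000019857, chr10:53596757-53609225 of GRCm38, plus strand, 4 exons) averaged 1040 normalized counts, a level of 473 per kb, at percentile 67.6. Asf1b (ENSMUSG00000005470, chr8:83955507-83970197, plus strand, 4 exons), the form known from dividing cells, averaged 66.6 normalized counts, a level of 37.3 per kb, at percentile 19.9. The level of Asf1a was thus 12.7 times that of Asf1b. Asf1a was at 2.21 times the level of the median gene and Asf1b at 0.174 times. The kinases that phosphorylate ASF1 had levels near that of Asf1a, with 362 per kb for Tlk1 and 456 per kb for Tlk2, and Cdan1, whose product codanin holds ASF1 in the cytoplasm, had 95.3 per kb. Asf1a lies entirely within Mcm9, a gene of the opposite strand with a mean normalized count of 334, and whether the counting used strand is not given in the sources used here.

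Bases from the 5′ end of both ASF1 genes are shown because the levels of this pair, which share a function, differed 12.7-fold. The 30 bases before the RefSeq start site were taken from the RefSeq promoter table of GRCm38.p6 (chr10:53596931-53596960 and chr8:83955664-83955693, both on the plus strand), with CCAAT boxes and the cell cycle element TTTGAA (CHR) in capitals. The RefSeq start sites lie 204 and 187 bases downstream of the gene starts in GENCODE given above, so both stretches are inside the annotated genes and upstream only of the RefSeq starts.
Asf1a: agctcgggggcagCCAATcgcgggcaacgc
Asf1b: aaggcggagccggctaTTTGAAgggagcgc
In these windows Asf1a has a CCAAT box 17 to 13 bases before its RefSeq start site, and Asf1b has the CHR 14 to 9 bases before its own. Within 250 bases before this site Asf1b has 4 CCAAT boxes in reverse orientation (ATTGG), of which the nearest lies 39 to 35 bases before it. By the GENCODE start, 3 of the 4 boxes are inside the gene and 1 is upstream of it. Asf1a has no other match in that range. A CHR was found in 16% and a CCAAT box in 33.8% of all 32851 promoter windows of the same length, with both strands searched.

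CAF-1 loads H3-H4 onto newly replicated DNA, guided by the sliding clamp PCNA, and consists of p150 (Chaf1a), p60 (Chaf1b) and the histone-binding protein RBBP4. Chaf1a (ENSMUSG00000002835, chr17:56040439-56072289, plus strand) averaged 159 normalized counts, a level of 20.6 per kb, at percentile 13.0, the lowest of the 10 chaperones per kb. With no length Asf1b was lower, at 0.419 times the value of Chaf1a. Chaf1b (ENSMUSG00000022945, chr16:93883901-93906115, plus strand) averaged 142 normalized counts, a level of 50.3 per kb, at percentile 23.8. Rbbp4, which also serves chromatin complexes other than CAF-1, had 1532 per kb, 74.2 times the level of Chaf1a (44.9 to 82.1 over the choices of length) and 30.4 times that of Chaf1b (21.9 to 50.2). Pcna had 3162 per kb. The subunits particular to CAF-1 were thus low beside the shared subunit and the clamp. The longest annotated transcripts of Chaf1a and Chaf1b have 11 and 7 exons, fewer than the 14 exons of the longest transcript typed as protein-coding in each gene. With the protein-coding transcripts, which were chosen after seeing the data, the levels were 28.7 and 74.0 per kb, still the lowest and the third lowest. Over 5245 bases Chaf1a overlaps Ubxn6 of the opposite strand, which had a mean normalized count of 4014, and the part of this overlap in the value of Chaf1a was not tested.

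The promoters of both CAF-1 genes are shown because their subunits were among the 3 lowest chaperones. They are the 250 bases before the RefSeq start sites in GRCm38.p6 (chr17:56040166-56040415 and chr16:93883651-93883900, both on the plus strand), with the E2F spelling TTCCCGC, in either orientation, and CCAAT boxes in capitals.
Chaf1a: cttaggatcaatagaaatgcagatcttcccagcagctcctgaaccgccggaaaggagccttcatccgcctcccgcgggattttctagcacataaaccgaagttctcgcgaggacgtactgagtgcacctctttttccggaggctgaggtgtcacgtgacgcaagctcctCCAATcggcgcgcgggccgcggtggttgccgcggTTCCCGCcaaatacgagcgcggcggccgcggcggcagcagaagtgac
Chaf1b: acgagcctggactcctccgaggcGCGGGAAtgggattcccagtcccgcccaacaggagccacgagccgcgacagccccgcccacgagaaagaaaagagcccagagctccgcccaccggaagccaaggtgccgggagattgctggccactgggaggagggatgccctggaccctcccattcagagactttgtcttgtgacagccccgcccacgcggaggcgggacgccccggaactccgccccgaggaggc
The match in Chaf1a lies 47 to 41 bases before the start site, and that in Chaf1b, in reverse orientation, 227 to 221 bases before it. This spelling was found in 3.82% of all promoter windows and in 4 of the 13 windows of the 10 chaperone genes. Besides both CAF-1 genes, those with it were Ssrp1 and Nap1l1. In Ssrp1 it lies before the more downstream of its start sites only. Asf1b, also among the 3 lowest, has no match, and a relation of the spelling to level was not tested. The CHR was found in Asf1b, Nasp and Ssrp1, and a CCAAT box in 7 of the 10 genes. The second E2F spelling TTGGCGC, the NRF1 motif, the HINFP motif CGGACGTT and the TATA box TATAAA were found in 0 of the 13 windows of the 10 genes, and in 1.97%, 3.74%, 0.174% and 12.4% of all windows. GC content of the 13 windows ran from 46.4% to 74.4%, against a median of 52.4% over all windows.

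The HIRA complex places H3.3 outside replication, at active genes and promoters, and is made of HIRA, an ubinuclein and CABIN1, with ASF1A as the donor. Hira (ENSMUSG00000022702, chr16:18877037-18970309, plus strand, 25 exons) averaged 1088 normalized counts, a level of 258 per kb, at percentile 54.1. On this scale Ubn1 had 271, Ubn2 120 and Cabin1 75.9 per kb. The ratio of Hira to Ubn1 was 0.950 and ran from 0.621 with no length to 1.30 with the mean transcript length, so which of them was higher depends on the length. The level of Hira was 2.14 times that of Ubn2, but 0.617 times with no length, where the direction turned. It was 3.40 times that of Cabin1, with 1.73 to 3.78 over the choices of length. Against CAF-1, Hira was at 12.5 times the level of Chaf1a (6.85 to 19.8) and 5.13 times that of Chaf1b (3.48 to 7.65). Of the 50-base words in the Hira transcript, 35.6% are found in no other gene, as Gm28539, an annotated gene of the same strand with no row in the table, spans 79211 bases of the locus. How reads were assigned between these genes is not known.

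DAXX and ATRX form the other H3.3 loader, in which DAXX binds H3.3-H4 and ATRX is a motor protein that directs it to telomeres and repeat-rich heterochromatin. Daxx (ENSMUSG00000002307, chr17:33909414-33915590, plus strand, 8 exons) averaged 1208 normalized counts, a level of 452 per kb, at percentile 66.6. Atrx (ENSMUSG00000031229, chrX:105797615-105929403, minus strand, 35 exons) had the highest mean normalized count of the 10 chaperones, 5432, and a level of 529 per kb, at percentile 69.9. The counts of Atrx and Daxx differed 4.50-fold, and their levels per kb 1.17-fold. The longest transcript of Atrx has 10275 bases and that of Daxx 2673 bases. With the joined exons of all transcripts the order turned, with 0.651 as the ratio of Atrx to Daxx, so which of the pair was higher depends on the length.

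NASP keeps a soluble store of H3-H4 and also binds linker histone H1. Nasp (ENSMUSG00000028693, chr4:116601052-116627941, minus strand) averaged 1665 normalized counts, a level of 528 per kb, at percentile 69.9, which was 14.2 times the level of Asf1b. This ratio was 7.77 with the joined exons and 25 with no length. Its longest annotated transcript has 2 exons. With the longest protein-coding transcript, of 16 exons, the level was 661 per kb, the third highest of the 10. Of its 50-base words 98.7% are found in no other gene, and the rest lie in processed pseudogenes.

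FACT loosens and rebuilds nucleosomes in front of and behind RNA and DNA polymerases by holding H2A-H2B, and consists of SSRP1 and SPT16. Ssrp1 (ENSMUSG00000027067, chr2:85037234-85047109, plus strand, 17 exons) averaged 3813 normalized counts with a level of 1392 per kb, at percentile 86.8. This was the highest of the 10 on the scale of the longest transcript, at 1.18 times Nap1l1, but the ratio was 0.991 with the mean transcript length and 0.819 with no length, and Ssrp1 was at rank 3 with both. The other subunit, listed as Supt16h, averaged 1932 normalized counts, a level of 413 per kb. The level of Ssrp1 was 3.37 times that of its partner, and the ratio lay between 1.97 and 4.01 over the choices of length.

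NAP1 proteins carry H2A-H2B from the cytoplasm and exchange it at nucleosomes. Nap1l1 (ENSMUSG00000058799, chr10:111473223-111498150, plus strand, 14 exons) averaged 4654 normalized counts, a level of 1183 per kb, at percentile 84.7. Within its family it was not the highest. Nap1l4, which is expressed in many tissues, had 2814 per kb and Nap1l5 had 2515 per kb, 2.38 and 2.13 times the level of Nap1l1 on the scale of the longest transcript. With no length these ratios were 1.38 and 0.997, so that Nap1l5 was not above Nap1l1. Nap1l3 and Nap1l2, known from neurons, had 249 and 191 per kb. Of the 50-base words of Nap1l1, 74.8% are found in no other gene, and 966 words are shared with the processed pseudogene Gm4204, which is listed with a mean normalized count of 1873. How reads were split between the gene and its pseudogene is not known, and the level of Nap1l1 is uncertain to that extent.

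**Figure D2:**
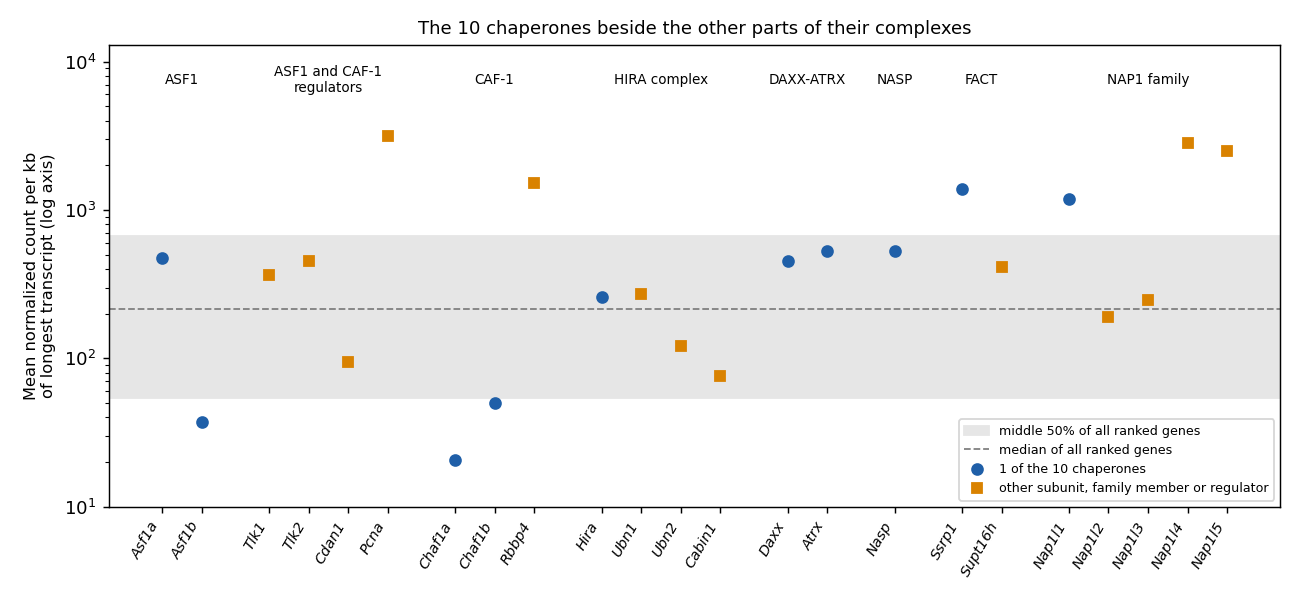
Level per kb of the longest transcript on a log axis for the 10 chaperones (circles) and for other subunits, family members and regulators (squares), grouped by complex, with the middle 50% of all ranked genes shaded. In CAF-1 both specific subunits lie far below Rbbp4, in the HIRA complex Hira and Ubn1 have 258 and 271 per kb, and in FACT Ssrp1 lies above Supt16h.

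The other genes of the pathway were taken as fixed lists, some of which overlap. Pcna is in the lists of regulators and of dividing-cell genes. Mcm2 is in those of further chaperones and of dividing-cell genes. Of 25 symbols of further chaperones and histone carriers 24 were in the table and 23 averaged 10 normalized counts or more, with a median level of 495 per kb and 17 genes above the median gene. The highest was Npm1, a nucleolar chaperone, with 4263 per kb, and the lowest was Tonsl, which binds new H4 behind replication forks, with 12.9 per kb. The 10 histones listed as replication-independent cargo had a median of 1427 per kb, and 8 of them were above the median gene. Among these, H3f3b, which encodes H3.3, had 9583 per kb, 37.1 times the level of Hira (22.1 to 46.2 over the choices of length), and H3f3a, the other H3.3 gene, had 1681 per kb. Cenpa, the centromeric H3, was the lowest with 34.9 per kb. Canonical histones were left out of this list, and the paper states that most histone transcripts are not polyadenylated.

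Of 17 dividing-cell genes 3 were above the median gene (Pcna, Mcm6 and Mcm7), and their median was 84.0 per kb. Chaf1a, Asf1b and Chaf1b were all below this median. On the scale of the longest transcript, 13 of the 17 genes were above Chaf1a and Asf1b, and 12 above Chaf1b. Among the higher ones were Mcm4 with 197, Mcm2 with 175 and Cdk1 with 109 per kb. Among the lower ones were Ccnb1 with 18.9 and Mki67 with 15.9 per kb. With no length the order turned for Mki67. Its mean normalized count of 160 was above those of Chaf1a (159), Chaf1b (142) and Asf1b (66.6). The lists were chosen with earlier results known and were not tested against each other.

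**Figure D3:**
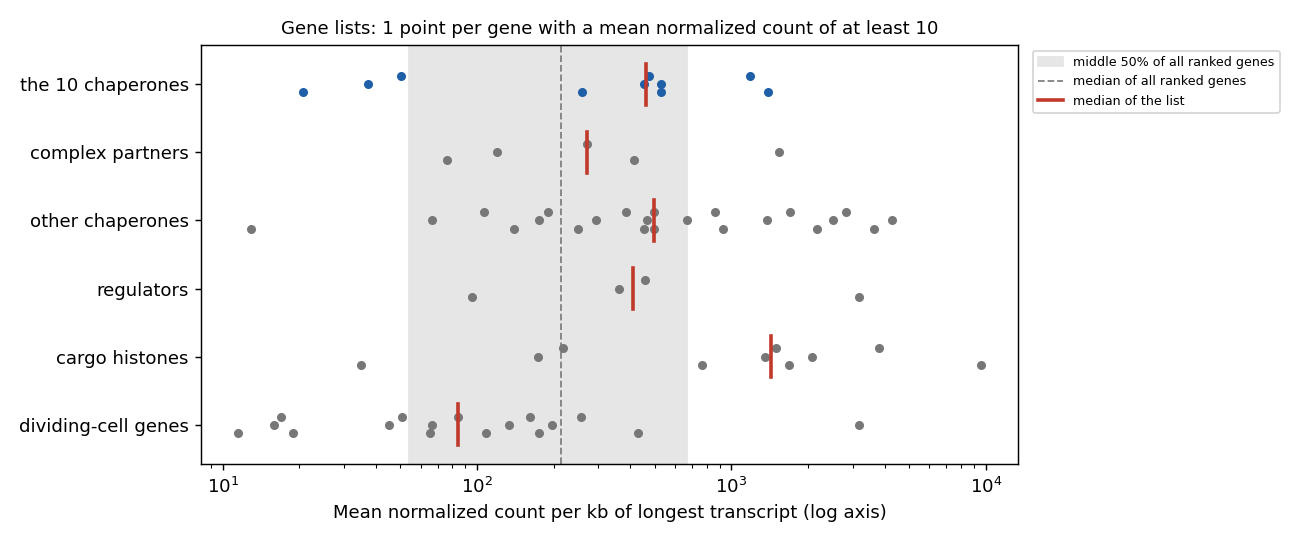
Level per kb of the longest transcript on a log axis for each gene of the 10 chaperones and 5 fixed lists, with the median of each list as a red line and the middle 50% of all ranked genes shaded. The medians run from 84.0 per kb for dividing-cell genes to 1427 per kb for the cargo histones, with the 10 chaperones at 462 per kb. Pcna and Mcm2 are shared between lists.

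The order of the 10 chaperones was also read with other lengths. With the longest transcript, the longest protein-coding transcript, the joined exons, the mean transcript length or no length at all, Chaf1a, Chaf1b and Asf1b took the last 3 ranks, and Nap1l1 was always at rank 2. Ssrp1 ranked between 1 and 3 and Hira between 6 and 7. Atrx, with 27 annotated transcripts, moved most. It was at rank 1 with its mean transcript length of 1700 bases and with no length. With its joined exons of 21757 bases it was at rank 5.

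**Figure D4:**
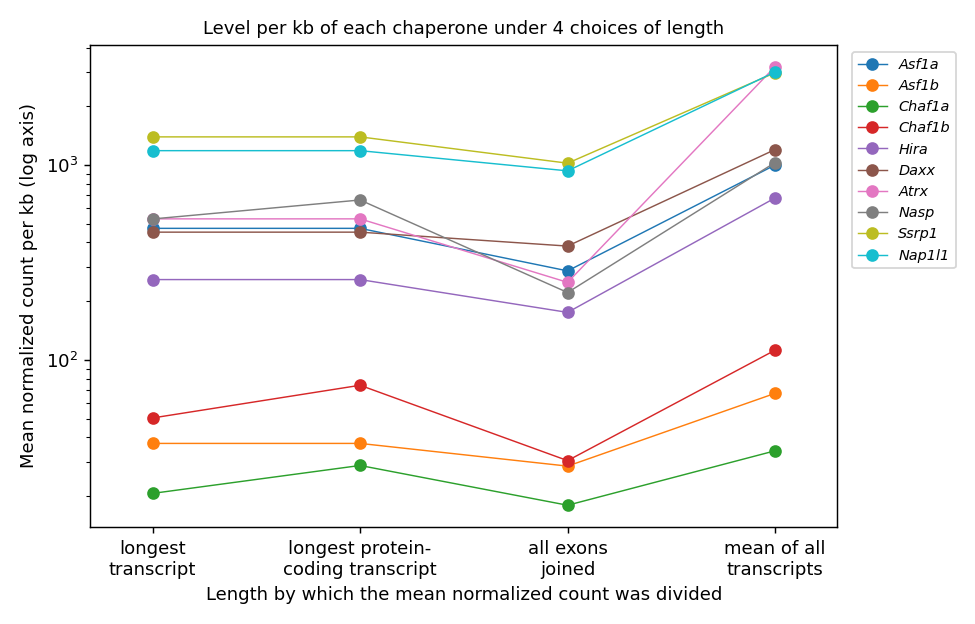
Level per kb of the 10 chaperones on a log axis when the same mean normalized count was divided by 4 lengths. Chaf1b, Asf1b and Chaf1a stay below the other 7 genes at each length, and the lines of Atrx, Nasp, Asf1a and Daxx cross.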

How the data were processed

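Poly(A) RNA of RPE/choroid was sequenced from 3 mice of each age after ribosomal depletion, with a stranded kit. According to the study's methods, the authors used BBDuk for trimming and STAR for mapping to Ensembl transcripts of GRCm38, quantified transcripts with Sailfish, scaled to total counts and compared the ages with DESeq2. The value used here is a signal, the mean normalized count over all libraries as deposited by the authors. The other 5 columns hold the authors' own comparison of the ages (fold change, its error, test statistic and p-values) and were not used, so no difference with age is given. The planned test needed values per library, and none was run.

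Lengths, positions and overlaps came from GENCODE M21 on GRCm38, which is not the annotation release the authors used. A length was found for 97.2% of the genes with a mean of at least 10, and 1510 ranked genes were matched through another symbol. The 10 chaperones and the lists were chosen with earlier results of these data known. Named genes are the 10 chaperones, their complex partners and regulators, and list members needed for a sentence. Promoters came from RefSeq (GRCm38.p6) for 10 of 10 genes. The percentile calculation returned planted ranks, which checks its arithmetic only and not the gene matching, the lengths or the deposited values. Python 3.11.15, pandas 2.3.3, numpy 2.4.6 and matplotlib 3.10.9 were used. Symbols of 25 genes had become dates and were not named.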

Additional observations from a re-analysis of the deposited data

How the results depend on the processing

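No paired analysis was possible because the values used hold 1 mean per gene over all libraries, and for the same reason no replicate could be left out. Of the 10 chaperones 7 were above the median gene, and 6 when ranked among genes with a mean of at least 50. The ratio of Asf1a to Asf1b, 12.7 with the longest transcript, was 14.8 with the mean transcript length, 10 with joined exons and 15.6 with no length. The ratio of Chaf1b to Chaf1a, 2.44 with the longest transcript, was 3.28 with the mean transcript length, 1.69 with joined exons, 2.58 with the longest protein-coding transcript (chosen after seeing the data) and 0.896 with no length, where its direction turned. Over all alternatives the percentile of Ssrp1 lay between 84.6 and 90.2, that of Hira between 46.5 and 65.8, that of Atrx between 59.7 and 91.8 and that of Chaf1a between 3.48 and 34.5. The lack of an error for each level limits every comparison between genes given here. Every level, percentile and ratio per kb also assumes that the deposited means are not already corrected for length, which was not tested. The study's methods start from TPM, which is divided by length, so this assumption may not hold. With no length, Atrx was the highest of the 10 (5432) and Asf1b the lowest (66.6), and the ratio of Atrx to Daxx was 4.50.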

Other observations

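Among the further chaperones, Hjurp, which loads the centromeric histone CENP-A in dividing cells, averaged 2413 normalized counts, a level of 495 per kb, at percentile 68.7. This was 14.2 times the level of its cargo Cenpa (5.47 times with the longest protein-coding transcripts) and 31.1 times that of Mki67 (15.1 to 41.1 over the choices of length). Hjurp was singled out after its values were seen.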
